A study of Homo sapiens with 12 samples.

Results

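The nuclear genes for subunits of oxidative phosphorylation were taken from the deposited expression table by symbol. They are the protein-coding genes whose names begin with NDUFA, NDUFB, NDUFC, NDUFS, NDUFV (not the assembly factors named NDUFAF), UQCR, COX4 to COX8 or ATP5, together with SDHA, SDHB, SDHC, SDHD and CYC1. This gave 92 of the 58735 genes in the table: 40 for complex I, 4 for complex II, 10 for complex III, 17 for complex IV and 21 for complex V. RNA came from HaCaT, an immortalised line of human keratinocytes, with 3 libraries in each of 4 groups: cells given siRNA against PHGDH and then the treatment the labels call Mix for 24 h (PHGDH-siRNA+Mix), cells given control siRNA and the same treatment (Control-siRNA+Mix), cells given PHGDH siRNA alone (PHGDH-siRNA) and cells given control siRNA alone (Control-siRNA). PHGDH encodes phosphoglycerate dehydrogenase, the enzyme that draws a glycolytic intermediate into serine synthesis. What Mix contains, which siRNA sequences were used and whether replicate libraries are separate cultures is not stated in the labels, so a p-value here reflects the spread between the sequenced libraries alone, which may be technical.

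Oxidative phosphorylation runs in the inner mitochondrial membrane. Complex I takes electrons from NADH and complex II from succinate; complexes III and IV pass them on to oxygen, and complex V, the ATP synthase, makes ATP from the proton gradient that complexes I, III and IV build. Most subunits are encoded in the nucleus and imported, while a small set, including catalytic subunits of complexes I, III and IV, is encoded by mitochondrial DNA (mtDNA).

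The 3 members that passed the test for a change with Mix in both siRNA arms all belonged to the ATP synthase. Most of its other subunits did not pass, and its median change was no lower than those of complexes II and III. With Mix, transcripts of ATP5F1A, the alpha subunit of the catalytic F1 head, and of ATP5MC1 and ATP5MC2, a pair of the 3 genes for the membrane-embedded c ring, fell in both siRNA arms (log2 fold changes of -0.46 to -0.78 under PHGDH siRNA and -0.55 to -0.90 under control siRNA, 3 libraries a group). UQCRC2 and UQCRFS1 of complex III, NDUFA10 of complex I and ATP5F1C of the F1 head also passed the test in the control arm. Each passed there under 9 or 10 of 20 alternative settings of the analysis, some of which nearly repeat the main fit. They were lower without overlap in the PHGDH-siRNA arm too, as were 27.2% of tested members and 10.3% of all genes. In the test of a difference between the arms, 0 members passed. The members that fell made up 3.7% in the PHGDH-siRNA arm (all genes 3.64%) and 8.64% in the control arm (all genes 3.92%). No member passed the test between PHGDH siRNA and control siRNA.

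ATP5MC1, ATP5MC2 and ATP5MC3 are known to encode the same mature protein behind different import sequences, and their coding stretches are shown because the results turn on counting the 3 transcripts apart. The longest end stretch that gives the same amino acids in all 3 genes, 234 coding bases with the stop, is printed 5′ to 3′ in lower case from GENCODE 29 transcripts (the annotation that the table's gene identifiers and lengths match), with the positions that are not the same in all 3 genes in capitals.
ATP5MC1: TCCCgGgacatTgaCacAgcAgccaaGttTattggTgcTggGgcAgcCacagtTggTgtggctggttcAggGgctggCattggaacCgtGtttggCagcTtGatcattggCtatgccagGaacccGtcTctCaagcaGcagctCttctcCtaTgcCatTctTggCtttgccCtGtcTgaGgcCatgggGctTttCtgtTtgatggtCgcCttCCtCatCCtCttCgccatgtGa
ATP5MC2: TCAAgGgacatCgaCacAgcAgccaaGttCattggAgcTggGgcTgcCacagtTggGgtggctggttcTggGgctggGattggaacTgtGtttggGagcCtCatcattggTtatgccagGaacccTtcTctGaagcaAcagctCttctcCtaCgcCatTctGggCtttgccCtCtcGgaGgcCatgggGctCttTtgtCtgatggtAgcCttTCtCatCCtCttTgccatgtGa
ATP5MC3: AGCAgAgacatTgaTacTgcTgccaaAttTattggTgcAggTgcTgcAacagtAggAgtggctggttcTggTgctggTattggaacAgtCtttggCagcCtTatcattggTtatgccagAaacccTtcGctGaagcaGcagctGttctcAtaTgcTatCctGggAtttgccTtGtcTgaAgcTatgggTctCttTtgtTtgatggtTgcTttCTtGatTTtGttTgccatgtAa
The bases differ at 58 of 234 positions and in 51 of 78 codons without a change of amino acid. ATP5MC1 and ATP5MC2 shared 207 of these bases (88.5%), and ATP5MC3 shared 187 (79.9%) with each of them. The genes lie on chromosome 17 (ATP5MC1), chromosome 12 (ATP5MC2) and chromosome 2 (ATP5MC3), and none of their coding bases is shared with another annotated gene.

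Promoters of the members that fell were searched for the letters of factors known from work on nuclear respiratory genes. RefSeq's table (GRCh38.p14) gave a window from 250 bases before to 50 bases after the start of transcription for 69 of the 92 members. The windows of ATP5F1A and ATP5MC1, which fell in both arms and whose starts match a GENCODE 29 transcript, are shown 5′ to 3′ on the gene's strand, with the 1 match in each in capitals. The match is CTTCCGG in ATP5F1A, the reverse complement of the ETS family's CCGGAAG, and CACGTG, an E-box, in ATP5MC1.
ATP5F1A, minus strand, chr18:46098247-46098546: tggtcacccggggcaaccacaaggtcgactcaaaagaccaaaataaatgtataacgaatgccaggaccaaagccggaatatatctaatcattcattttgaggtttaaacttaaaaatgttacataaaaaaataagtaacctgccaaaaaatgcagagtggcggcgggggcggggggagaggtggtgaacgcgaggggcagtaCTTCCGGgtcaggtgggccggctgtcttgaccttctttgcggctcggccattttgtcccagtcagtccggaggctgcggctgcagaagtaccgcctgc
ATP5MC1, plus strand, chr17:48892537-48892836: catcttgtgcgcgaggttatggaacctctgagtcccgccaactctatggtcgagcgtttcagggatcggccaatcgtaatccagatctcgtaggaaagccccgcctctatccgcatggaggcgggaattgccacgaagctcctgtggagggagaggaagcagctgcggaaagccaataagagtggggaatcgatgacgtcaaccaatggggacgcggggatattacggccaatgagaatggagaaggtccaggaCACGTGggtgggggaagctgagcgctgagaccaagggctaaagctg
On either strand, CCGGAAG was found in 19 of 69 member windows (27.5%), against 10.3% of all 35116 windows in the table and 12.8% of those of protein-coding genes. AAGATGGCG, a YY1 motif, was found in 9 member windows (13.0%), against 1.75% of all windows and 2.41% of those of protein-coding genes. CGCATGCG, the core of an NRF1 motif, was found in 8 (11.6%), against 2.02% and 2.49%. CACGTG was found in 7 (10.1%), against 7.26% and 8.34%. ETS and YY1 matches shared bases in 0 member windows. Of the other members that fell, ATP5F1C held 1 NRF1 match, and UQCRC2, UQCRFS1, NDUFA10 and ATP5MC2 held no match to any of the 4 motifs. In the table's hg38 coordinates, the 7 members that fell lie at chr18:46080248-46104334 (ATP5F1A), chr10:7788129-7807815 (ATP5F1C), chr17:48892765-48895871 (ATP5MC1), chr12:53632726-53677408 (ATP5MC2), chr16:21952660-21983660 (UQCRC2), chr19:29205321-29213541 (UQCRFS1) and chr2:239892450-240025402 (NDUFA10). The matches are letters in a window and were not tied to binding or to the expression differences.

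Levels are FPKM, fragments per kilobase of gene length scaled for library size, as the authors deposited them. Between 16403845 and 20901128 reads per library could be recovered from the values, of which the members took 0.880% to 1.47%. PHGDH itself had 19.1, 13.3 and 11.5 FPKM in PHGDH-siRNA+Mix libraries, 31.9, 31.2 and 26.6 FPKM in Control-siRNA+Mix libraries, 23.7, 20.1 and 16.9 FPKM in PHGDH-siRNA libraries and 36.5, 56.2 and 45.8 FPKM in Control-siRNA libraries. Each PHGDH-siRNA group lay below its control without overlap, although the limma differences (log2 fold changes -1.01 with Mix and -1.14 without) had Benjamini-Hochberg adjusted p-values of 0.2003 and 0.128. All 9 keratinocyte markers examined were detected, summing to 1335 to 5096 FPKM per library; the 6 fibroblast markers summed to 0.0511 to 0.181 FPKM. In bulk RNA of this kind, fewer cells expressing a gene and less RNA per cell cannot be told apart.

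Of the 92 members, 81 reached a mean of 0.5 FPKM in at least 1 group and were tested: 37 of complex I, 4 of complex II, 10 of complex III, 11 of complex IV and 19 of complex V. Because the filter uses the group means, a gene high in only 1 group could pass through that group. NDUFV2, at 0.393 FPKM in its highest group, lay just outside, and NDUFA13, at 0.567 FPKM, just inside. The tested members' means over the 12 libraries ranged from 0.490 to 693 FPKM, with a median of 38.9 FPKM. ATP5F1B, the catalytic beta subunit of ATP synthase, was the highest of all. In the other complexes the highest were COX8A (357 FPKM), a small subunit of complex IV, NDUFS5 (229 FPKM), an accessory subunit of complex I, CYC1 (219 FPKM), the cytochrome c1 of complex III, and SDHB (57.8 FPKM), the iron-sulfur subunit of complex II. The lowest tested members were NDUFA13 in complex I, SDHC (10.6 FPKM), a membrane anchor of complex II, UQCRHL (2.61 FPKM), a near-copy of UQCRH, COX7A2L (16.1 FPKM), which takes part in assembling supercomplexes, and ATP5S (0.799 FPKM). This order between genes depends on the gene length by which FPKM divides the reads, the union of all annotated exons. SDHB had 1988 to 3275 reads per library over 2462 bases, and SDHC had 2164 to 3101 reads over 14160 bases.

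**Figure D1:**
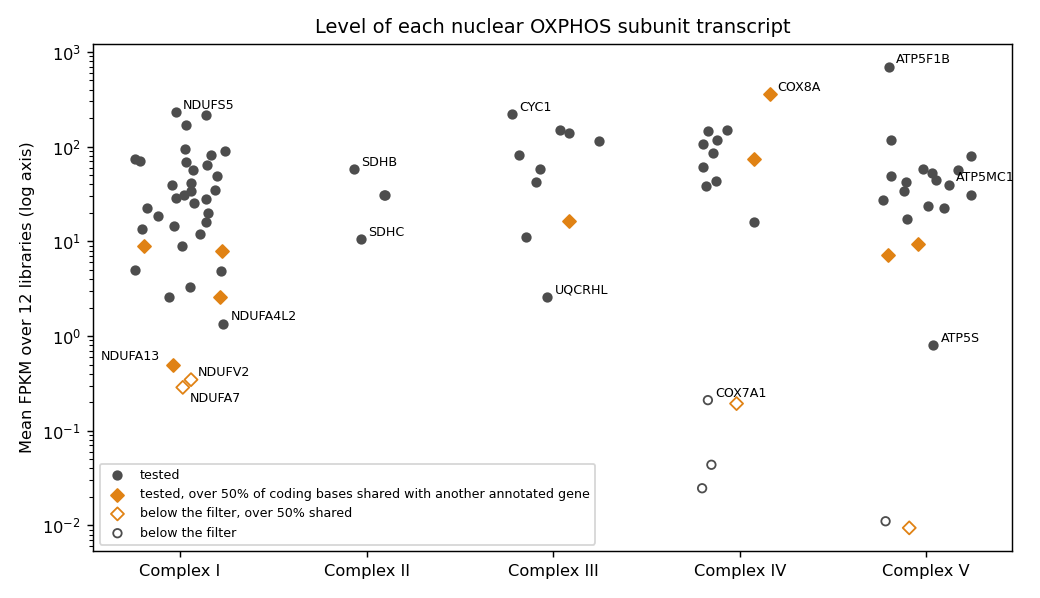
Mean FPKM over 12 libraries (log axis) for each member, by complex; filled symbols were tested, open symbols lay below the filter, and orange diamonds share over 50% of their coding bases with another annotated gene. The 3 members at 0 in every library are not drawn. Tested members range from 0.490 to 693 FPKM, and NDUFA13, NDUFA7 and NDUFV2 lie at the bottom of complex I.

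Among the lowest levels were those of 3 subunits that complex I is known to contain in all tissues. NDUFA13 averaged 0.490, NDUFV2, a core iron-sulfur subunit, 0.346 and NDUFA7 0.287 FPKM over the 12 libraries. In GENCODE 29, 55.2% of NDUFA13's coding bases are also annotated to AC011448.1, 84.7% of NDUFV2's to AP005263.1 and 78.3% of NDUFA7's to AC010323.1. Over all members, 14 shared over 50% of their coding bases with another annotated gene and had a median level of 4.83 FPKM, against 38.6 FPKM for the other 78. COX8A, at 357 FPKM, and COX6A1, at 73.7 FPKM, share 55.1% and 53.5% and were among the higher members of complex IV. How the counting treated reads in shared stretches was not tested, and the levels of these 14 members are uncertain.

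Isoform partners were uneven. COX4I2 and COX6A2, forms of complex IV subunits known from lung and from heart and skeletal muscle, were listed at 0 in all 12 libraries, as was the readthrough gene NDUFC2-KCTD14. Their broadly expressed partners COX4I1 and COX6A1 averaged 95.6 ± 26 and 74.0 ± 3.72 FPKM in PHGDH-siRNA+Mix libraries and 117 ± 28.6 and 67.4 ± 40.2 FPKM in Control-siRNA libraries (SD, n = 3 each). The group means of COX7A1, the muscle form, were 0.211 FPKM in PHGDH-siRNA+Mix, 0.324 in Control-siRNA+Mix, 0.235 in PHGDH-siRNA and 0.0721 in Control-siRNA; COX7A2, its liver-type partner, lay at 56.4 to 66.1 FPKM. COX6B2, a testis form, had group means of 0.310 FPKM in PHGDH-siRNA+Mix, 0.0630 in Control-siRNA+Mix, 0.315 in PHGDH-siRNA and 0.0860 in Control-siRNA. The means of both groups given PHGDH siRNA rested on replicate 2 (0.0944, 0.595 and 0.241 FPKM in PHGDH-siRNA+Mix libraries, and 0.0950, 0.738 and 0.112 FPKM in PHGDH-siRNA libraries). COX7B2 and COX8C did not exceed group means of 0.132 and 0.0662 FPKM, while COX6B1, COX7B and COX8A averaged 128 ± 41.1, 44.4 ± 4.97 and 376 ± 175 FPKM in Control-siRNA libraries (SD, n = 3). NDUFA4L2, a relative of NDUFA4 known as a hypoxia-induced gene, stood at 0.814% to 4.14% of NDUFA4's level. Its lowest values, 0.250 and 0.297 FPKM, were those of replicate 2 of PHGDH-siRNA+Mix and of PHGDH-siRNA. Both genes are counted with complex I by name, although NDUFA4 is known as a subunit of complex IV. UQCRHL stood at 1.42% to 2.53% of UQCRH's level; 272 of their 276 coding bases are identical (98.6%), so reads of the pair may have been split or lost between them.

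The nuclear members moved together from library to library, and libraries of the same group differed. For each library the median deviation of the 81 tested members from their own 12-library means was taken, on the log2(FPKM + 1) scale. It was 0.00, -0.32 and -0.13 in PHGDH-siRNA+Mix libraries, 0.05, 0.00 and -0.13 in Control-siRNA+Mix libraries, 0.20, -0.08 and 0.08 in PHGDH-siRNA libraries and -0.15, 0.38 and 0.21 in Control-siRNA libraries. The Control-siRNA group thus held the highest library, replicate 2, and one of the low ones, replicate 1, and the group overlapped all others. The SD of these medians within groups was 0.18 over all members, 0.20 in complex I, 0.10 in II, 0.17 in III, 0.20 in IV and 0.14 in V.

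**Figure D2:**
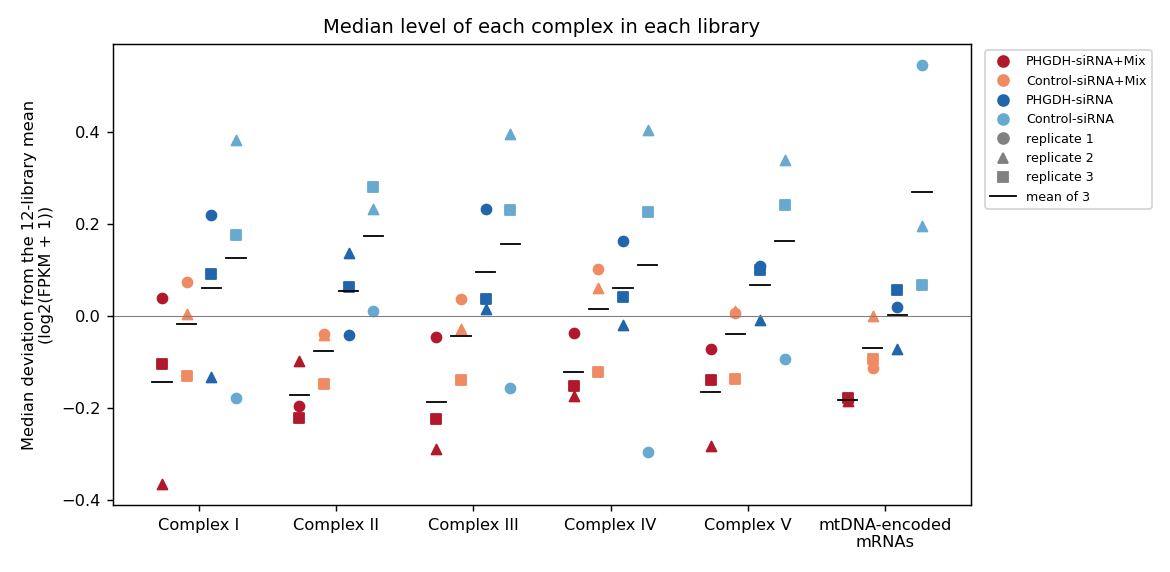
Median deviation of each complex's tested members from their 12-library means (log2(FPKM + 1)), with the 13 mtDNA-encoded mRNAs at right; colours are groups, symbols replicate numbers and bars the mean of 3 libraries. For the members together, Control-siRNA libraries run from -0.15 (replicate 1) to 0.38 (replicate 2), and replicate 1 is the highest library for the mtDNA-encoded mRNAs, at 0.55.

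Control-siRNA replicate 1 stood apart in several measures. Its 13 mtDNA-encoded mRNAs summed to 63998 FPKM, above every other library (39450 to 50523 FPKM), and 7.08% of its reads were mitochondrial. Across the 81 tested members, its deviation correlated with gene length (Spearman's rho 0.45, across genes of 1 library, which are not independent): the 41 members of 2475 bases or less had a median of -0.30 and the 40 longer members -0.03. The trend was not particular to that library: rho was 0.38 in PHGDH-siRNA replicate 2, and it ran the other way in Control-siRNA+Mix replicates 1 and 2 (-0.50 and -0.42), Control-siRNA replicate 2 (-0.39) and PHGDH-siRNA replicate 1 (-0.36). ATP5ME, a short membrane subunit of complex V, had 3.95, 26.2 and 18.4 FPKM in the 3 Control-siRNA libraries, and NDUFA1, a short accessory subunit of complex I, had 37.3, 130 and 109 FPKM. The members' fold changes carried a length trend in several comparisons. With Mix in the control arm the median change was -0.07 for the shorter and -0.19 for the longer members (rho -0.33), while in the PHGDH-siRNA arm it was -0.21 and -0.17 (rho 0.06). For the difference between the arms it was -0.13 for the shorter and 0.03 for the longer (rho 0.48). Between the siRNAs it was -0.15 for the shorter and -0.10 for the longer with Mix (rho 0.34), and -0.04 and -0.12 without (rho -0.20).

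Replicate 2 of both groups given PHGDH siRNA also stood apart. The 9 keratinocyte markers summed to 5087 FPKM in PHGDH-siRNA+Mix replicate 2, against 2706 and 2362 FPKM in the other libraries of its group, and to 5096 FPKM in PHGDH-siRNA replicate 2, against 1470 and 1360 FPKM. The keratin KRT14 had 2737 FPKM in PHGDH-siRNA+Mix replicate 2 and 2986 FPKM in PHGDH-siRNA replicate 2, against 548 to 1092 FPKM in the other libraries given PHGDH siRNA. Both had the lowest member median of their group (-0.32 with Mix and -0.08 without). Values without these libraries are given for some of the results that changed.

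The comparison of Mix with no Mix asks which subunit transcripts differ after 24 h of treatment, within each siRNA arm. Changes are log2 fold changes of FPKM + 1 with their standard error (SE), from limma fitted to 14577 genes in all 12 libraries, with Benjamini-Hochberg adjustment over all of them and 0.05 as the threshold. In the PHGDH-siRNA arm 3 of 81 members fell and 0 rose, while 3.64% of all genes tested fell and 5.22% rose; the members' share, 3.70%, was near the background. In the control arm 7 of 81 fell (8.64%) and 0 rose, while 3.92% of all genes fell and 5.62% rose. All 3 members called in the PHGDH-siRNA arm were among the 7 of the control arm. The arms share no library.

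**Figure D3:**
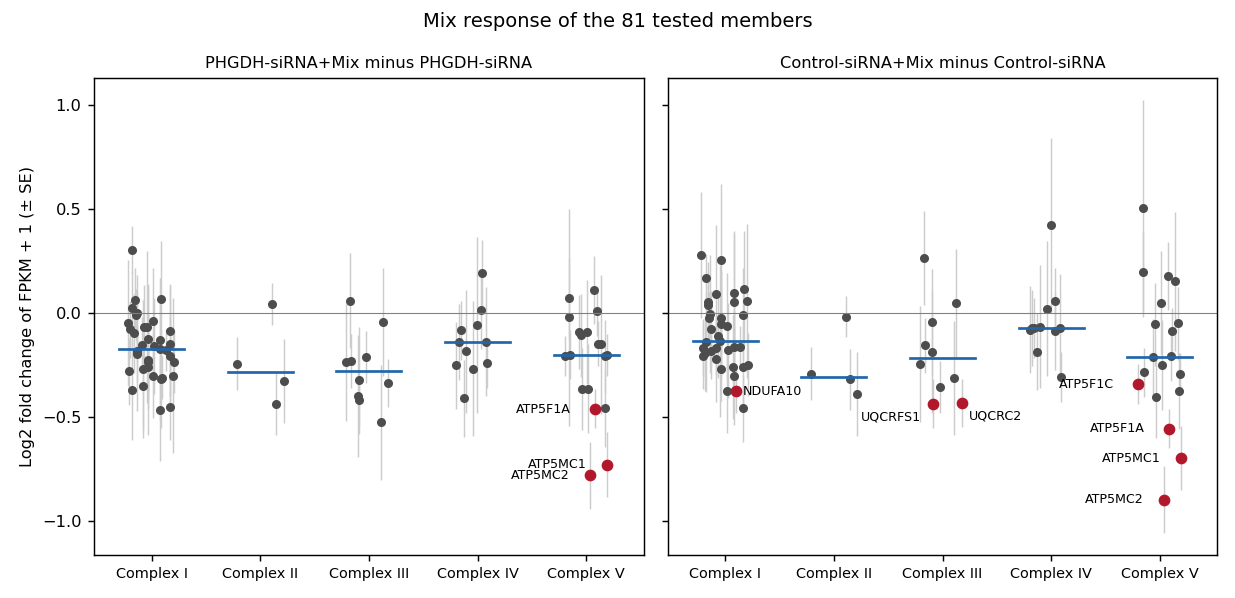
Log2 fold change of FPKM + 1 (± SE) with Mix for the 81 tested members, by complex, in the PHGDH-siRNA arm (left) and the control arm (right); blue bars are medians and red points passed the limma test at an adjusted p of 0.05. ATP5MC2, ATP5MC1 and ATP5F1A pass in both arms and lie among the lowest points.

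In the F1 head, ATP5F1A had 43.6, 44.1 and 45.8 FPKM in PHGDH-siRNA+Mix libraries against 59.9, 62.8 and 62.0 FPKM in PHGDH-siRNA libraries. It had 49.9, 48.4 and 46.5 FPKM in Control-siRNA+Mix libraries against 71.0, 70.1 and 72.8 FPKM in Control-siRNA libraries. Replicates lay close together and all 6 libraries with Mix were below all 6 without. The log2 fold change was -0.46 (SE 0.0938, limma adjusted p 0.012) in the PHGDH-siRNA arm and -0.55 (SE 0.0938, limma adjusted p 0.00355) in the control arm. ATP5F1C, the gamma subunit that turns within the head, had 73.6, 69.9 and 70.4 FPKM in PHGDH-siRNA+Mix against 81.1, 82.1 and 83.3 FPKM in PHGDH-siRNA libraries. It had 73.0, 70.2 and 71.3 FPKM in Control-siRNA+Mix against 86.7, 93.0 and 93.0 FPKM in Control-siRNA libraries. Neither pair of groups overlapped, but only the control arm passed the limma test (-0.34, SE 0.0961, adjusted p 0.0486, against -0.20, adjusted p 0.247, in the PHGDH-siRNA arm), and the test of the difference between the arms did not pass (adjusted p 1.0). ATP5F1B had 672, 411 and 614 FPKM in PHGDH-siRNA+Mix against 824, 588 and 747 FPKM in PHGDH-siRNA libraries, which overlapped, and 666, 634 and 617 FPKM in Control-siRNA+Mix against 763, 905 and 876 FPKM in Control-siRNA libraries, which did not. Its log2 fold changes of -0.36 in the PHGDH-siRNA arm and -0.40 in the control arm (SE 0.196 each) had limma adjusted p-values of 0.319 and 0.263. ATP5F1E, the epsilon subunit, was the member of the head with fold changes above 0 in both arms (0.11 in the PHGDH-siRNA arm and 0.18 in the control arm; limma adjusted p 0.751 and 0.606).

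In the c ring, which turns as protons pass through the membrane, ATP5MC2 had 19.2, 16.2 and 17.3 FPKM in PHGDH-siRNA+Mix libraries against 36.9, 26.7 and 29.6 FPKM in PHGDH-siRNA libraries. It had 21.5, 20.7 and 19.4 FPKM in Control-siRNA+Mix libraries against 32.0, 48.1 and 38.6 FPKM in Control-siRNA libraries. The groups did not overlap in either arm, and the libraries without Mix were the more scattered. The fold changes, -0.78 (SE 0.161, limma adjusted p 0.0132) in the PHGDH-siRNA arm and -0.90 (SE 0.161, limma adjusted p 0.00541) in the control arm, were the lowest of any member in both arms. ATP5MC1 had 28.9, 26.9 and 28.3 FPKM in PHGDH-siRNA+Mix against 47.7, 42.8 and 51.2 FPKM in PHGDH-siRNA libraries. It had 33.0, 34.0 and 27.3 FPKM in Control-siRNA+Mix against 40.7, 61.8 and 53.5 FPKM in Control-siRNA libraries. Again neither pair overlapped; the fold changes were -0.73 (SE 0.155, limma adjusted p 0.015) in the PHGDH-siRNA arm and -0.70 (SE 0.155, limma adjusted p 0.0173) in the control arm. ATP5MC3 had 34.3, 30.3 and 34.4 FPKM in PHGDH-siRNA+Mix against 48.7, 41.7 and 46.6 FPKM in PHGDH-siRNA libraries. It had 42.4, 37.3 and 36.7 FPKM in Control-siRNA+Mix against 35.8, 62.6 and 57.2 FPKM in Control-siRNA libraries. It did not pass (-0.46 in the PHGDH-siRNA arm and -0.37 in the control arm, SE 0.184 each; limma adjusted p 0.170 and 0.272), and in the control arm its groups overlapped because Control-siRNA replicate 1 was low.

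The 3 genes differed in their share of the ring's summed FPKM. FPKM divides reads by gene length, which was 2615 bases for ATP5MC1, 3991 for ATP5MC2 and 6780 for ATP5MC3. The shares can be compared between groups but are not shares of molecules. Of the FPKM summed over ATP5MC1, ATP5MC2 and ATP5MC3, ATP5MC3 made up 41.9% ± 0.912 in PHGDH-siRNA+Mix and 36.9% ± 0.556 in PHGDH-siRNA libraries, and 42.8% ± 1.93 in Control-siRNA+Mix and 35.9% ± 2.70 in Control-siRNA libraries (SD, n = 3 each). Its lowest share with Mix (40.6%) was above its highest without (38.3%). ATP5MC2 made up 22.3% ± 0.897 in PHGDH-siRNA+Mix and 25% ± 2.38 in PHGDH-siRNA libraries, which overlapped slightly, and 22.7% ± 0.563 in Control-siRNA+Mix and 27.8% ± 1.85 in Control-siRNA libraries (SD, n = 3 each), which did not. ATP5MC1's shares overlapped in both arms. They were 35.1% to 36.65% in PHGDH-siRNA+Mix against 35.76% to 40.23% in PHGDH-siRNA libraries. In the control arm they were 32.78% to 36.9% in Control-siRNA+Mix against 35.81% to 37.52% in Control-siRNA libraries. The shares were looked at after the fold changes were known, and 3 libraries against 3 cannot give an exact permutation p below 0.1. The summed level of the 3 genes was 73.5 to 82.4 FPKM in PHGDH-siRNA+Mix against 111 to 133 FPKM in PHGDH-siRNA libraries, and 83.4 to 96.9 FPKM in Control-siRNA+Mix against 109 to 173 FPKM in Control-siRNA libraries.

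**Figure D4:**
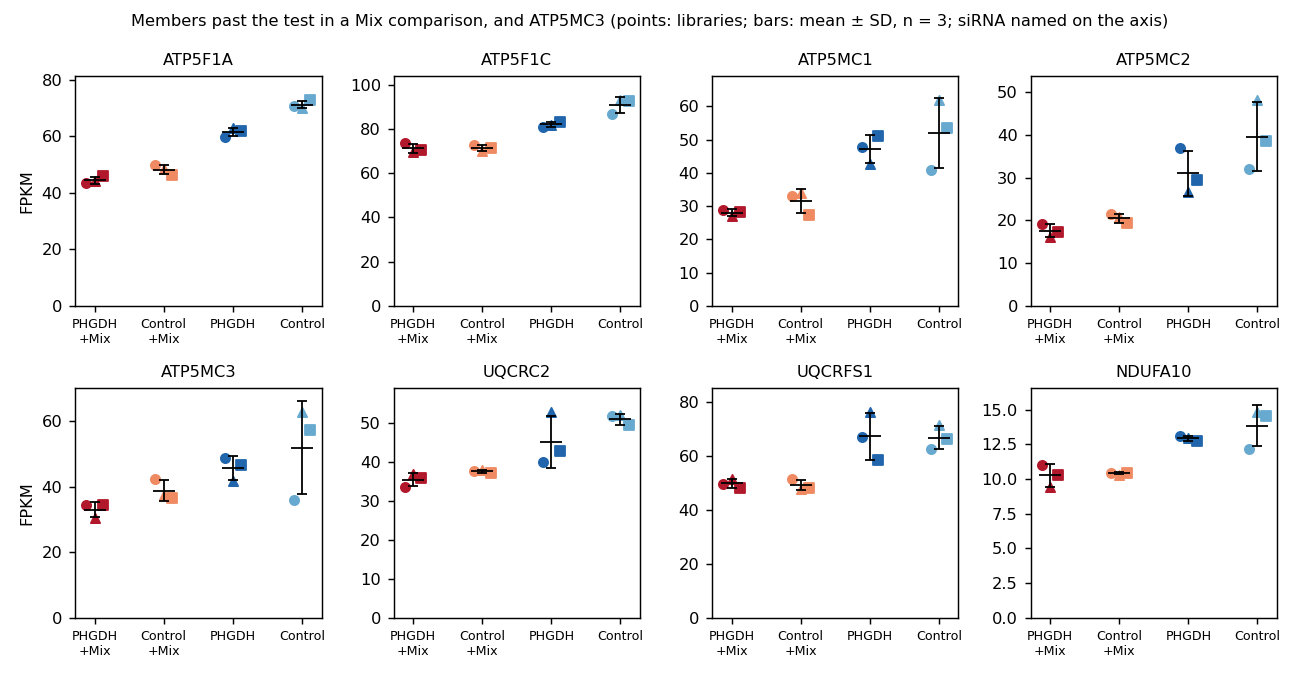
FPKM in each library (points; bars are mean ± SD, n = 3) of the 7 members that passed the test in a Mix comparison, and of ATP5MC3, with the groups from left to right PHGDH-siRNA+Mix, Control-siRNA+Mix, PHGDH-siRNA and Control-siRNA. ATP5F1A runs from 43.6 to 49.9 FPKM with Mix and from 59.9 to 72.8 FPKM without.

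The stalk and the remaining membrane subunits of ATP synthase did not pass the test in either Mix comparison. Of the 4 peripheral stalk genes, which hold the head still, ATP5PB had the lowest fold change, with 42.3, 42.7 and 47.0 FPKM in PHGDH-siRNA+Mix against 47.7, 50.3 and 54.3 FPKM in PHGDH-siRNA libraries (-0.20, limma adjusted p 0.274), and 52.6, 51.1 and 52.4 FPKM in Control-siRNA+Mix against 62.7, 64.4 and 64.8 FPKM in Control-siRNA libraries (-0.29, limma adjusted p 0.101). The 5 tested other membrane subunits (ATP5ME, ATP5MF, ATP5MG, ATP5MD and ATP5MPL) had median changes of -0.11 in the PHGDH-siRNA arm and 0.16 in the control arm. The control value turned to -0.30 without Control-siRNA replicate 1 and was 0.35 without Control-siRNA replicate 2, and the value of the PHGDH-siRNA arm ran from -0.19 without PHGDH-siRNA replicate 2 to 0.00 without PHGDH-siRNA replicate 1. ATP5IF1, the inhibitor that stops the synthase from running backwards, averaged 44.3 ± 4.06 FPKM in PHGDH-siRNA+Mix against 47.7 ± 8.61 FPKM in PHGDH-siRNA, and 43.6 ± 6.51 FPKM in Control-siRNA+Mix against 43.8 ± 15.2 FPKM in Control-siRNA (SD, n = 3 each).

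In complex III, UQCRFS1, the Rieske iron-sulfur protein, had 49.6, 51.5 and 48.1 FPKM in PHGDH-siRNA+Mix against 67, 76 and 58.4 FPKM in PHGDH-siRNA libraries. It had 51.2, 47.6 and 48.2 FPKM in Control-siRNA+Mix against 62.6, 71.2 and 66.2 FPKM in Control-siRNA libraries. The groups did not overlap in either arm; the control arm passed (-0.43, SE 0.118, limma adjusted p 0.0426) and the PHGDH-siRNA arm missed the threshold (-0.42, limma adjusted p 0.0518). UQCRC2, a core protein of the matrix side, had 33.6, 36.9 and 36.0 FPKM in PHGDH-siRNA+Mix against 40.2, 52.8 and 42.9 FPKM in PHGDH-siRNA libraries. It had 37.8, 37.9 and 37.2 FPKM in Control-siRNA+Mix against 51.8, 52.1 and 49.5 FPKM in Control-siRNA libraries. It too passed in the control arm alone (-0.43, SE 0.116, limma adjusted p 0.0407, against -0.33, adjusted p 0.108), with no overlap in either arm. UQCRC1, its partner, had log2 fold changes of -0.21 and -0.36 (limma adjusted p 0.376 and 0.116) in the PHGDH-siRNA and control arms. CYC1 averaged 164 ± 49.0 FPKM in PHGDH-siRNA+Mix against 235 ± 61.1 FPKM in PHGDH-siRNA, and 209 ± 20.4 FPKM in Control-siRNA+Mix against 266 ± 72.2 FPKM in Control-siRNA (SD, n = 3 each), with overlap in both arms.

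In complex I, NDUFA10, an accessory subunit, had 11.0, 9.42 and 10.3 FPKM in PHGDH-siRNA+Mix against 13.1, 12.9 and 12.7 FPKM in PHGDH-siRNA libraries. It had 10.5, 10.3 and 10.4 FPKM in Control-siRNA+Mix against 12.1, 14.8 and 14.5 FPKM in Control-siRNA libraries. Neither pair overlapped, and the control arm passed (-0.37, SE 0.105, limma adjusted p 0.0481), while the PHGDH-siRNA arm did not (-0.31, adjusted p 0.1004). The 6 tested core subunits had fold changes below 0 in both arms without passing, with medians of -0.31 in the PHGDH-siRNA arm and -0.26 in the control arm. Leaving out 1 library moved these from -0.44 (without PHGDH-siRNA+Mix replicate 1) to -0.18 (without PHGDH-siRNA replicate 1) in the PHGDH-siRNA arm and from -0.47 (without Control-siRNA replicate 1) to -0.18 (without Control-siRNA replicate 2) in the control arm. Among them, NDUFV1, which binds NADH, averaged 35.7 ± 5.19 FPKM in PHGDH-siRNA+Mix against 45.7 ± 5.54 FPKM in PHGDH-siRNA, and 38.5 ± 2.54 FPKM in Control-siRNA+Mix against 46.4 ± 13.6 FPKM in Control-siRNA (SD, n = 3 each). NDUFS1, the largest iron-sulfur subunit, had changes of -0.08 in the PHGDH-siRNA arm and -0.16 in the control arm. NDUFAB1, the mitochondrial acyl carrier protein, had changes of -0.21 in the PHGDH-siRNA arm and -0.26 in the control arm (limma adjusted p 0.597 and 0.505). NDUFS4, an accessory subunit chosen here after its values were seen, went the other way in the PHGDH-siRNA arm, with 28.2, 28.2 and 32.7 FPKM in PHGDH-siRNA+Mix against 23.8, 24.4 and 23.2 FPKM in PHGDH-siRNA libraries. These groups did not overlap, but the change of 0.31 did not pass (limma adjusted p 0.138).

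Complexes II and IV had no member past the test. SDHA, the flavoprotein of complex II, had 24.5, 26.6 and 23.5 FPKM in PHGDH-siRNA+Mix against 33.6, 36.3 and 32.1 FPKM in PHGDH-siRNA libraries, without overlap (-0.44, limma adjusted p 0.103). It had 29.6, 29.96 and 27.3 FPKM in Control-siRNA+Mix against 28.0, 42.6 and 40.0 FPKM in Control-siRNA libraries, which overlapped through replicate 1 (-0.32, limma adjusted p 0.241). SDHB did not overlap in either arm (-0.24 in the PHGDH-siRNA arm and -0.29 in the control arm; limma adjusted p 0.305 and 0.207), and SDHC had changes of 0.05 in the PHGDH-siRNA arm and -0.02 in the control arm. In complex IV the median change was -0.14 in the PHGDH-siRNA arm and -0.07 in the control arm. COX5A and COX5B, which sit on the matrix side, had changes of -0.41 and -0.18 in the PHGDH-siRNA arm (limma adjusted p 0.229 and 0.781) and of -0.18 and -0.06 in the control arm. COX4I1 had changes of -0.14 in the PHGDH-siRNA arm and -0.07 in the control arm. COX7B had changes of -0.24 in the PHGDH-siRNA arm and -0.31 in the control arm (limma adjusted p 0.285 and 0.156), with no overlap in either.

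Taken over all 81 tested members, more changes with Mix were below 0 than above. In the PHGDH-siRNA arm 69 of 81 were below 0 (85.2%, against 49.8% of all genes tested), with a median of -0.20 against 0.00 for all genes. In the control arm 61 were below 0 (75.3%, against 49.1%), with a median of -0.14 against 0.00. These counts moved with single libraries. In the control arm 43 of 81 were below 0 without Control-siRNA replicate 2 (all genes 49.0%) and 76 of 81 without Control-siRNA replicate 1 (all genes 49.6%). In the PHGDH-siRNA arm 58 of 81 were below 0 without PHGDH-siRNA+Mix replicate 2 (all genes 49.0%), with a median of -0.14. Without PHGDH-siRNA+Mix replicate 1 it was 71 of 81 (all genes 50.7%). By complex, the medians in the PHGDH-siRNA arm were -0.17 in complex I, -0.28 in II, -0.28 in III, -0.14 in IV and -0.20 in V. Complex I ran there from -0.29 without PHGDH-siRNA replicate 2 to -0.06 without PHGDH-siRNA+Mix replicate 2. In the control arm the medians were -0.13, -0.30, -0.21, -0.07 and -0.21 for complexes I to V. Without Control-siRNA replicate 1 they were -0.28 in complex I, -0.36 in II, -0.41 in III, -0.28 in IV and -0.31 in V, and without Control-siRNA replicate 2 they were -0.04, -0.22, -0.10, 0.08 and -0.12 for complexes I to V. Below 0 in both arms were 56 members and above 0 in both 7. The members without overlap between the groups numbered 22 lower (27.2%, against 10.3% of all genes) and 2 higher (2.47%, against 11.3%) with Mix in the PHGDH-siRNA arm. In the control arm they numbered 17 lower (21.0%, against 18.7%) and 1 higher (1.23%, against 19.1%). The higher ones, NDUFS4 and ATP5F1E in the PHGDH-siRNA arm and UQCRB in the control arm, are named because they are few. Members share libraries and move together in them, so these counts describe the list and are not a test of it.

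The counts depended on single libraries and on the model. In the arms given PHGDH siRNA, libraries with the same number deviated in the same direction (correlations across genes of 0.69, 0.77 and 0.46), and a fit with the replicate number as a block in those arms called 9 members in the PHGDH-siRNA arm: ATP5F1B, UQCRFS1, ATP5F1A, UQCRC2, ATP5MC1, SDHD, ATP5MC2, NDUFS3 and NDUFA10, all lower. In the same fit 1514 of all genes fell (10.4%), so the members' share, 11.1%, was near the background. Without Control-siRNA replicate 1, the members' median in the control arm was -0.30 and 9 members were called there (11.1%, against 3.79% of all genes falling); without Control-siRNA replicate 2, the median was -0.03 and 2 were called (2.47%, against 2.12%). Without replicate 2 of both PHGDH-siRNA arms 11 were called in the control arm (13.6%, against 9.86%). The alternatives are not independent checks. Median ratio scaling nearly repeats the main fit. Leaving out libraries given PHGDH siRNA can move the SE but not the fold changes of the control arm. ATP5F1A and ATP5MC2 passed in the control arm under all 20 alternatives tried (limma adjusted p 0.000903 to 0.0279 and 0.000327 to 0.0322). ATP5MC1 passed there under 16 (limma adjusted p 0.00266 to 0.0885) and missed without Control-siRNA replicate 2, Control-siRNA replicate 3, Control-siRNA+Mix replicate 1 or Control-siRNA+Mix replicate 3 (0.0623, 0.0739, 0.0525 and 0.0885). In the PHGDH-siRNA arm, a fit of its own 2 groups alone ended the calls of ATP5F1A, ATP5MC2 and ATP5MC1 (limma adjusted p 0.126, 0.0861 and 0.0578). Without PHGDH-siRNA replicate 1, ATP5MC2 and ATP5MC1 missed there (0.0523 and 0.0509), and ATP5MC1 also missed without PHGDH-siRNA replicate 3 or PHGDH-siRNA+Mix replicate 3 (0.0667 and 0.0502). The control-arm calls nearest the threshold passed under fewer alternatives: 9 of 20 for ATP5F1C and for UQCRC2, and 10 of 20 for UQCRFS1 and for NDUFA10. All 4 missed without Control-siRNA replicate 2, without Control-siRNA replicate 3 and without each Control-siRNA+Mix library in turn (limma adjusted p 0.0994 to 0.171).

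PHGDH siRNA against control siRNA asks which subunit transcripts differ after the knockdown, with and without Mix. No member passed limma's adjusted threshold in either comparison (0.0206% of all genes passed with Mix and 0.0412% without, in either direction), and 0 passed with voom on the recovered reads (0.0343% and 0.0412% of all genes). At an unadjusted p of 0.05, 1 member passed with Mix (1.23%, against 5.72% of all genes) and 5 without (6.17%, against 6.41%), all lower, which is not above the background. ATP5PB had the lowest p in both, with 42.3, 42.7 and 47.0 FPKM in PHGDH-siRNA+Mix against 52.6, 51.1 and 52.4 FPKM in Control-siRNA+Mix libraries, and 47.7, 50.3 and 54.3 FPKM in PHGDH-siRNA against 62.7, 64.4 and 64.8 FPKM in Control-siRNA libraries. Neither pair overlapped, and the fold changes were -0.24 with Mix and -0.33 without (SE 0.1001 each; limma adjusted p 0.827 and 0.486). ATP5MPL, a small membrane subunit, was next in both (-0.21 with Mix and -0.29 without, limma adjusted p 0.975 and 0.715), also without overlap. NDUFC1 with Mix (-0.46, adjusted p 0.979) and COX7A2L without (-0.40, adjusted p 0.715) came next. NDUFC1 had 23.1, 12.2 and 21.3 FPKM in PHGDH-siRNA+Mix libraries, and its change was -0.19 without replicate 2 of that group and -0.63 without replicate 1. ATP5F1A was also lower without overlap in both comparisons (-0.11 with Mix and -0.21 without; limma adjusted p 0.979 and 0.775).

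Over the members, 69 of 81 changes were below 0 with Mix, with a median of -0.13 (all genes 0.00), and 55 of 81 without Mix, with a median of -0.09 (all genes 0.01). The groups did not overlap for 10 members with Mix (12.3%, all lower, against 7.33% of all genes lower and 7.01% higher) and for 8 without (9.88%, all lower, against 5.3% lower and 4.89% higher). By complex the medians lay between -0.15 and -0.12 with Mix and between -0.13 and -0.04 without. Without Control-siRNA replicate 1 the median in cells not given Mix was -0.25, and without Control-siRNA replicate 2 it was 0.02. It was -0.02 without PHGDH-siRNA replicate 2, with 43 of 81 members below 0, -0.05 without Control-siRNA replicate 3 and -0.13 without PHGDH-siRNA replicate 1. With Mix it was -0.05 without PHGDH-siRNA+Mix replicate 2, with 62 of 81 members below 0, -0.09 without Control-siRNA+Mix replicate 1 and -0.20 without PHGDH-siRNA+Mix replicate 1.

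The difference between the arms in their response to Mix (the change in the PHGDH-siRNA arm minus the change in the control arm) was past the limma threshold for 0 of 81 members (0 also with voom) and 0% of all genes. At an unadjusted p of 0.05, 0 members and 250 of all genes passed. The lowest p-values among members were those of ATP5PO, a stalk subunit (0.22, SE 0.166), ATP5F1C (0.14, SE 0.136) and NDUFA1 (-0.48, SE 0.514). The members' median was -0.03, and the SE of a single member's difference was 0.133 to 0.736. That median ran from -0.16 without Control-siRNA replicate 2 to 0.12 without Control-siRNA replicate 1.

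Other genes of mitochondrial energy metabolism were read from 6 further lists. All 13 mtDNA-encoded mRNAs had changes below 0 with Mix in both arms, with medians of -0.19 in the PHGDH-siRNA arm and -0.34 in the control arm, and none passed limma's test (lowest adjusted p 0.309 and 0.0759). Their sum was 39450 to 40416 FPKM in PHGDH-siRNA+Mix against 44065 to 46481 FPKM in PHGDH-siRNA libraries, and 41211 to 43180 FPKM in Control-siRNA+Mix against 45538 to 63998 FPKM in Control-siRNA libraries. Neither pair of sums overlapped.

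Of 18 genes of the tricarboxylic acid cycle, 3 fell and 0 rose with Mix in the PHGDH-siRNA arm and 4 fell and 0 rose in the control arm. Over all genes tested, 3.64% fell in the PHGDH-siRNA arm and 3.92% in the control arm. FH, fumarase, had 47.0, 45.3 and 42.8 FPKM in PHGDH-siRNA+Mix against 60.7, 72.5 and 66.8 FPKM in PHGDH-siRNA libraries (-0.55, limma adjusted p 0.0113). It had 46.8, 49.3 and 47.4 FPKM in Control-siRNA+Mix against 76.9, 65.8 and 69.5 FPKM in Control-siRNA libraries (-0.55, limma adjusted p 0.0100). MDH2, mitochondrial malate dehydrogenase, fell by 0.55 on the log2 scale in the PHGDH-siRNA arm and by 0.59 in the control arm. SUCLG1, a subunit of succinyl-CoA ligase, had changes of -0.38 in the PHGDH-siRNA arm and -0.46 in the control arm, which passed in both. CS, citrate synthase, passed in the control arm (-0.44). Of 17 genes for mobile carriers and exchange, the coenzyme Q synthesis genes COQ3 and COQ7 fell in both arms (each -0.47 in the PHGDH-siRNA arm and -0.43 in the control arm) and COQ5 (-0.52) in the PHGDH-siRNA arm; 0 rose.

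Few assembly factors and none of the regulators examined passed the test. Of 33 tested assembly factors for complexes II to V, COX10, which makes the heme of complex IV, fell in both arms (-0.40 in the PHGDH-siRNA arm and -0.47 in the control arm; limma adjusted p 0.0222 and 0.00967). ATPAF1, which helps assemble the F1 head, fell in the control arm (-0.48, limma adjusted p 0.0312). The calls thus numbered 1 of 33 in the PHGDH-siRNA arm, where 3.64% of all genes fell. They numbered 2 of 33 in the control arm, where 3.92% of all genes fell. None of the 19 complex I assembly factors passed in either arm (median -0.27 in the PHGDH-siRNA arm and -0.22 in the control arm; lowest limma adjusted p 0.101 and 0.0680). None of the 17 tested regulators of mitochondrial biogenesis passed either (median -0.09 in the PHGDH-siRNA arm and -0.03 in the control arm; lowest limma adjusted p 0.0867 and 0.0973). In the siRNA comparisons and in the difference between the arms, 0 genes of these 6 lists passed.

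Of the 9 keratinocyte markers, LAMB3 rose with Mix in both arms (2.05 in the PHGDH-siRNA arm and 2.00 in the control arm; limma adjusted p 0.00184 and 0.00174) and ITGA6 in the PHGDH-siRNA arm (1.21, limma adjusted p 0.0363). Over all genes tested, 5.22% rose in the PHGDH-siRNA arm and 5.62% in the control arm. The 9 markers summed to 2362 to 5087 FPKM in PHGDH-siRNA+Mix against 1360 to 5096 FPKM in PHGDH-siRNA libraries, the highest of each being replicate 2, and to 2530 to 2653 FPKM in Control-siRNA+Mix against 1335 to 1799 FPKM in Control-siRNA libraries. The markers did not all rise. KRT5 had 320, 327 and 298 FPKM in Control-siRNA+Mix against 356, 515 and 550 FPKM in Control-siRNA libraries, without overlap. It had 246, 877 and 233 FPKM in PHGDH-siRNA+Mix against 377, 1382 and 365 FPKM in PHGDH-siRNA libraries, with overlap. Changes were below 0 for 2 of the 9 in the PHGDH-siRNA arm and 1 in the control arm, and 0 passed as lower. Markers of melanocytes, leukocytes and endothelial cells, 5 genes each, summed to no more than 2.93 FPKM in any library. The part of these differences in the members' values was not tested.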

How the data were processed

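RNA of 12 HaCaT libraries was extracted with RNAiso Plus and made into libraries with a NEBNext Ultra kit, per the labels' protocols. Per the submitters' processing notes, featureCounts 1.5.0-p3, HISAT2 2.0.5, CASAVA and the build hg38 were used, in an order not recorded there; strand setting and shared reads are not described. The authors deposited FPKM values for 58735 genes, not log transformed. FPKM multiplied by gene length gave whole reads within 0.05 for 100% of values up to 200 reads. The median ratio to the geometric mean library was the same (1.01) in all 12 libraries, so the deposited values are already scaled between libraries.

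From these FPKM, log2 values were computed with a pseudocount of 1, which understates changes of genes with low values in the deposited table. The 14577 genes whose mean reached 0.5 FPKM in some group were fitted with limma 3.58.1 (R 4.3.3; trend and robust; 4 group means, 8 residual degrees of freedom) with 5 two-sided comparisons, each Benjamini-Hochberg adjusted. The fit was tested on simulated data. Gene lengths equalled the union of GENCODE 29 exons for all genes. Per-gene precision comes from 1 spread within groups, pooled over the 4 groups of 3 libraries and moderated by limma across genes. The SE of a gene is therefore the same in both arms and is not the spread of the compared groups alone. Read counts carry counting error only and no molecular identifiers are known.

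The members, lists and roles were chosen with earlier results of these data known. Named genes were up to 6 members per direction and comparison by adjusted p, otherwise the 3 with the lowest p, the highest and lowest member of each complex, a panel of core subunits and isoform sets, and up to 4 genes per other list. Alternatives were another pseudocount, no filter, median ratio scaling, TPM, voom on recovered reads, a replicate block, the compared groups alone and leaving out libraries; the block in the PHGDH-siRNA arms alone, and the alternatives for the medians of the core and membrane subunits, were added after seeing the data. Within those arms all 3 same-numbered pairs correlated above 0.1. The values of 1 member of complex I are not reported here by name.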

Additional observations from a re-analysis of the deposited data

How the results depend on the processing

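The members' median kept within 1 SD of the library medians under every alternative run, in all 5 comparisons. That SD, 0.18, is as wide as most of these medians are far from 0, so a median could reach 0 or change sign within it. Without Control-siRNA replicate 2 the median was -0.03 with Mix in the control arm and 0.02 between the siRNAs without Mix. For the difference between the arms it was 0.12 without Control-siRNA replicate 1. The count of members called varied too. In the control arm (7 called) it was 3 without the expression filter, 3 with a replicate block over all groups, 11 without replicate 2 of both PHGDH-siRNA arms, and 2 to 9 when single libraries were left out: 9 without Control-siRNA replicate 1, 2 without Control-siRNA replicate 2, Control-siRNA replicate 3, Control-siRNA+Mix replicate 1 or Control-siRNA+Mix replicate 3, 3 without Control-siRNA+Mix replicate 2 or PHGDH-siRNA+Mix replicate 3, and 4 without PHGDH-siRNA replicate 1 or replicate 3. In the PHGDH-siRNA arm (3 called) it was 8 with TPM, 8 with voom on recovered reads, 9 with the replicate block in those arms, 0 with the compared groups alone, and 1 to 8 when single libraries were left out (8 without Control-siRNA replicate 1, 1 without PHGDH-siRNA replicate 1). The share of all genes that fell varied as well. In the control arm it was 1.14% without the filter (members 3.37%) and 3.61% with the block over all groups (members 3.7%). It was 9.86% without replicate 2 of both PHGDH-siRNA arms (members 13.6%). Without single libraries it was 3.79%, 2.12% and 1.65% (Control-siRNA replicates 1 to 3) and 1.7%, 1.77% and 1.52% (Control-siRNA+Mix replicates 1 to 3). It was 3.66% and 3.28% without PHGDH-siRNA replicates 1 and 3, and 3.19% without PHGDH-siRNA+Mix replicate 3. In the PHGDH-siRNA arm it was 5.2% with TPM and 5.9% with voom (members 9.88% in each). With the block in those arms it was 10.4% (members 11.1%), and with the compared groups alone 0.357% (members 0%). It was 4.09% without Control-siRNA replicate 1 (members 9.88%) and 1.91% without PHGDH-siRNA replicate 1 (members 1.23%). In every setting 0 members rose. The cause of these changes was not tested. Leaving out libraries or groups also leaves fewer degrees of freedom, and the part of that was not tested either.

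Over all groups, 5 of 18 same-numbered pairs correlated above 0.1 (lowest -0.387, highest 0.775), so the numbers do not pair libraries there; the replicate block changed no other count of members called. Scaling to library totals moved the median of all genes: with voom it was -0.10 in the PHGDH-siRNA arm and -0.06 in the control arm, where the members' medians were -0.30 and -0.24. The calls of all genes then numbered 643 higher and 860 lower, against 761 and 530 in the fit reported, in the PHGDH-siRNA arm, and 736 and 788, against 819 and 572, in the control arm. With TPM they were 633 and 758, and 731 and 704. NDUFA1's difference between the arms turned to 0.0685 without Control-siRNA replicate 1 and ran from -0.8175 (without Control-siRNA replicate 2) to that value when single libraries were left out. Below about 1 FPKM, counting error limits the values: NDUFA13 rested on 13 to 36 reads per library.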
